A study of Homo sapiens with 6 samples.

Results

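The genes described here are the nuclear genes for subunits of oxidative phosphorylation (OXPHOS). They were chosen by name, as symbols of the NDUFA, NDUFB, NDUFC, NDUFS and NDUFV series with a number, NDUFAB1, and symbols that start with UQCR, COX4I, COX5, COX6, COX7, COX8 or ATP5. Of 25277 rows in the table, 85 names met this rule, and 75 had a mean of at least 1 FPKM (fragments scaled by transcript length and by mapped fragments in the library) over the libraries. These 75 are the members. They comprised 37 names of complex I, 8 of complex III, 12 of complex IV and 18 of complex V. NDUFA4 was counted in complex IV, where its protein is now placed. By function 71 of the 75 are subunits. The other 4 are ATP5J2-PTCD1, a readthrough of neighbouring genes, ATP5S and ATP5SL, which are accessory factors despite their names, and COX7A2L, a factor that joins complexes III and IV. The minimum acted as a filter on low values, and 10 names did not reach it. UQCRHL stood just outside with a mean of 0.923 FPKM, and ATP5S was the lowest member at 6.74 FPKM. Genes of mitochondrial DNA were not analysed here.

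RNA came from Jeko and Rec-1, established human lines derived from mantle cell lymphoma, which arises from B cells. All 6 libraries came from cells with Cas9 and a doxycycline-inducible vector, induced for 48 h, so the controls also received doxycycline, an antibiotic known to inhibit mitochondrial translation. In each line 1 library carried the empty vector (control), 1 carried single guide RNA (sgRNA) 1 and 1 carried sgRNA 2 against NR4A1, an immediate early nuclear receptor. There was thus 1 control per line, the sgRNA libraries of a line were different guides rather than repeats of 1 guide, and nothing in the labels says that they came from separate cultures.

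Oxidative phosphorylation is the last stage of respiration in the inner mitochondrial membrane. Complex I takes electrons from NADH, complex III passes them from ubiquinol to cytochrome c, complex IV passes them to oxygen, and the proton gradient built on the way drives ATP synthesis by complex V. Most subunits are encoded in the nucleus by short, highly expressed genes, and their products must be matched with the few made inside the organelle. Many of these genes have processed pseudogene copies, so FPKM of single members are uncertain where reads were shared with a copy.

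Several facts about the libraries bear on what follows. The library labelled Rec-1 control resembled the Jeko libraries: Pearson's r of log2(FPKM + 1) over 10316 tested protein-coding genes was 0.988 between it and the Jeko control, but 0.804 and 0.811 between it and the libraries labelled Rec-1 sgRNA 1 and 2. CCND1, the cyclin D1 gene that marks mantle cell lymphoma, had 598, 815 and 442 FPKM in the Jeko control, sgRNA 1 and sgRNA 2 libraries, 495 in the library labelled Rec-1 control, and 0.696 and 0.592 in the labelled Rec-1 sgRNA libraries. CCND1 is 1 of 2 genes in the list of mantle cell lymphoma markers. In the 3 Jeko libraries and the library labelled Rec-1 control, 2 of 2 reached 1 FPKM. In each labelled Rec-1 sgRNA library 1 of 2 did, the listed gene other than CCND1, so not every listed marker was lost there. All 6 of 6 B-cell markers reached 1 FPKM in each library, with sums of 584 to 1032 FPKM. T-cell markers (CD3D, CD3E, CD3G, CD2) summed to 2.11 to 5.43 FPKM in the 3 Jeko libraries and the library labelled Rec-1 control, with 1 of 4 at 1 FPKM or more, and to 102 and 120 FPKM in the labelled Rec-1 sgRNA libraries, with 3 of 4. Markers of red cells, epithelium, monocytes and fibroblasts summed to at most 3.37 FPKM. NR4A1 stood at 5.99 FPKM in the control of Jeko, at 3.89 with sgRNA 1 and at 4.44 with sgRNA 2, and at 11.6 FPKM in the library labelled Rec-1 control against 27.4 and 12.7 in those labelled Rec-1 sgRNA, so its level did not match the labels in Rec-1 (a cut by Cas9 need not lower a transcript). Results for Rec-1 are therefore given as values of labelled libraries, and their counts are set beside a comparison that leaves out the library labelled Rec-1 control. The part of these library differences in the results was not tested.

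Members were abundant in every library. Their median was 168 FPKM in the Jeko control, 138 with sgRNA 1 and 107 with sgRNA 2, and 150 FPKM in the library labelled Rec-1 control against 128 and 124 in those labelled Rec-1 sgRNA 1 and 2. Among the most abundant, COX7C, a small subunit of complex IV, had 879 to 1189 FPKM, and ATP5I, the e subunit of complex V, had 839 to 1093 FPKM. COX6A1, which encodes the general form of subunit VIa, had 1239.5 FPKM in the Jeko control, while COX6A2, its heart and muscle form, was listed at 0 in 5 libraries and reached 0.238 FPKM in the other. The same held for other tissue forms: COX7A1, the muscle form of subunit VIIa, and COX4I2, the lung form of subunit IV, were listed at 0 in all 6 libraries, while COX7A2 had 115 to 326 FPKM and COX4I1 had 468 to 791 FPKM. COX6B2, the testis form of subunit VIb, was at or below 0.138 FPKM, and COX6B1 had 292 to 524 FPKM.

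All 75 members were matched by symbol to the GENCODE annotation on GRCh37, 18 of them through an older symbol, and 61 of them to a RefSeq promoter window of 300 bases (250 before the start of transcription and 50 after it, taken from the GRCh38.p14 table). A set of 3 short motifs of factors known to drive respiratory genes was searched on both strands: GCATGCGC for NRF1, CCGGAAG for the ETS family, which includes GABPA, and AAGATGGC for YY1. The NRF1 letters were in 11 of 61 member windows (18.0%), against 6.08% of 8532 windows of tested protein-coding genes and 4.28% of all 15812 protein-coding windows. For YY1 the shares were 16.4% of members, 6.07% of tested genes and 3.86% of all, and for ETS they were 27.9%, 21.5% and 14.1%. By complex, the NRF1 letters were in 5 of 32 windows of complex I, 0 of 7 of complex III, 2 of 10 of complex IV and 4 of 12 of complex V. These are matches of letters, not measured binding. In each complex the window with the most kinds of motif (ties broken by mean FPKM) is printed 5′ to 3′ on the strand of the gene, with the letters that match a motif in capitals, because these 4 show how the motifs sit around the start of the genes whose values follow. Their positions, from an exact match to GRCh37, are chr19:1383656-1383955 on the plus strand for NDUFS7, a core subunit of complex I, chr1:46769120-46769419 on the plus strand for UQCRH, the hinge protein of complex III, chr12:120875666-120875965 on the plus strand for COX6A1, and chr21:27107316-27107615 on the minus strand for ATP5J, coupling factor 6 of complex V.
NDUFS7 promoter: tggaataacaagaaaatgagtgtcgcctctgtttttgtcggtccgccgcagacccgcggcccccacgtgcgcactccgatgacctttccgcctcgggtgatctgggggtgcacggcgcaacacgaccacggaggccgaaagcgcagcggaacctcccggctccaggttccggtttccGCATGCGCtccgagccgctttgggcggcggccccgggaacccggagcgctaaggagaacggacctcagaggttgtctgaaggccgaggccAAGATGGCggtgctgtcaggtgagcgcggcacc
UQCRH promoter: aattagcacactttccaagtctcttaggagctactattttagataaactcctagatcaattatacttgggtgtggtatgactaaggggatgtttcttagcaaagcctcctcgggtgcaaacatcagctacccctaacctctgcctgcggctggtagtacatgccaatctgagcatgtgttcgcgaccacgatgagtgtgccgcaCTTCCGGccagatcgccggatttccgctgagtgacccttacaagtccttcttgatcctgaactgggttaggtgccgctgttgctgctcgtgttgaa
COX6A1 promoter: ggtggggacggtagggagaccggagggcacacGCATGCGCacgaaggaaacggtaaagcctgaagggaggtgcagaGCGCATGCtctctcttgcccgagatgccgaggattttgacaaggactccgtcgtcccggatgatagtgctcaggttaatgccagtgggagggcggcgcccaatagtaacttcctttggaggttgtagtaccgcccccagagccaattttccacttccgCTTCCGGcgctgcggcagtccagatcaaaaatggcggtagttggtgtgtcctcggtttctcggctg
ATP5J promoter: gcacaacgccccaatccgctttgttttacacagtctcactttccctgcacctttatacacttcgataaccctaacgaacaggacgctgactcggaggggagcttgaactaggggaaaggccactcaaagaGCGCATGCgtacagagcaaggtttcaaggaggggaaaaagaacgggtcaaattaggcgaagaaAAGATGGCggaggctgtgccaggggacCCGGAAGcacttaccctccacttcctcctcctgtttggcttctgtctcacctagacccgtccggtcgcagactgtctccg
In the NDUFS7 window the capitals are an NRF1 and then a YY1 motif, in the UQCRH window an ETS motif, in the COX6A1 window a pair of NRF1 motifs and an ETS motif, and in the ATP5J window an NRF1, a YY1 and an ETS motif. No letters were shared between motifs there.

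In Jeko the members were lower with both guides than in the control, and lower with sgRNA 2 than with sgRNA 1. The median difference on the log2(FPKM + 1) scale was -0.26 with sgRNA 1 (69 of 75 lower) and -0.67 with sgRNA 2 (74 of 75 lower), while the median over all 11400 tested genes was 0.00 for each. In summed FPKM the members stood at 82.1% of the control with sgRNA 1 and 64.0% with sgRNA 2. Both sgRNA libraries lay below the control for 68 of 75 members and above it for 0, while 36.4% of all tested genes had both below. No single member passed the test: 0 of 75 were called by limma at an adjusted p under 0.05 (Benjamini-Hochberg over 11400 genes, of which 0.439% were called), 4 had an unadjusted p under 0.05 (NDUFA6, NDUFB8, COX5B and COX6A1, all lower; 5.33% of members against 11.3% of all tested genes), and the lowest adjusted p was 0.397, for COX6A1. This comparison has a single control, whose spread is assumed to be that of the guides. In bulk RNA, fewer cells that express a gene and less RNA per cell cannot be told apart.

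**Figure D1:**
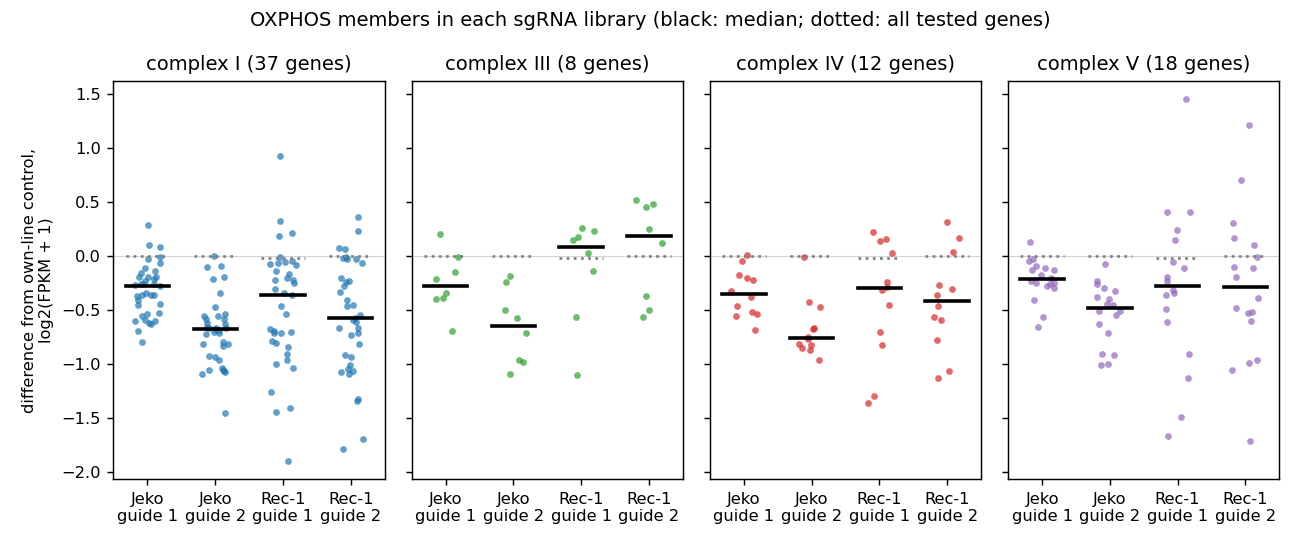
Difference of each member from the control of its own line, on the log2(FPKM + 1) scale, in each sgRNA library (x axis), by complex. Each point is 1 gene, black bars are medians over the members and dotted bars are medians over all tested genes. In Jeko the medians of all 4 complexes lie below 0 and lie lower with guide 2, and in Rec-1 complex III lies above 0 (0.09 and 0.18).

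Transcript length has to be read beside this. The median longest annotated transcript was 1366 nt for members and 3425.5 nt for 10308 tested protein-coding genes with a length, and 50 of 75 members fell in the shortest quintile of the latter. That quintile without the members (2012 genes) had Jeko medians of -0.30 with sgRNA 1 and -0.35 with sgRNA 2, and 68.7% of it lay below the control in both libraries, against 47 of the 50 members (94.0%). The 50 short members had medians of -0.34 and -0.70, so with sgRNA 1 they lay near other short genes and with sgRNA 2 further down. The other 25 members had medians of -0.23 and -0.54, where protein-coding genes of the longer quintiles had medians from -0.17 to 0.36 with sgRNA 1 and from -0.18 to 0.36 with sgRNA 2. Across protein-coding genes the Jeko difference (mean of the guides) had a Spearman correlation of 0.56 with length, as a description across genes that share libraries, and of 0.36 across the 75 members. After each library was adjusted for length by a smooth curve, the members' medians were -0.07 (47 of 75 lower) with sgRNA 1 and -0.42 (70 of 75 lower) with sgRNA 2. Of the 10308 genes so adjusted, 5148 were lower with sgRNA 1 and 5152 with sgRNA 2. After this adjustment 46 members lay below the control in both, and the share of all adjusted genes that did so was not computed. With the median instead of the longest annotated transcript as length, these medians were -0.20 and -0.56. The part of transcript length in the Jeko difference was not tested further.

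**Figure D2:**
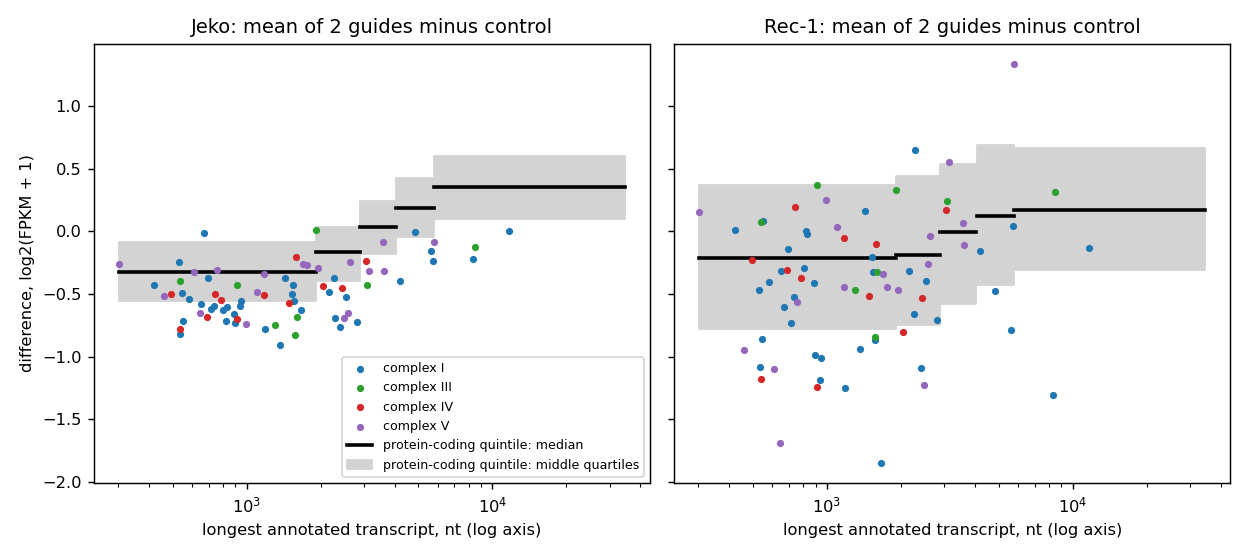
Mean difference of both guides from the own-line control (y axis, log2(FPKM + 1) scale) against the longest annotated transcript (x axis, log scale) in Jeko and Rec-1. Points are members by complex, black bars and gray boxes are the median and middle quartiles of tested protein-coding genes in quintiles of length (the shortest quintile without members). In Jeko 49 of the 50 members in the shortest quintile lie below 0, against 39 of 50 in Rec-1. Of the whole shortest quintile, members included, 82.2% lie below 0 in Jeko and 60.5% in Rec-1.

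Most members were also lower with sgRNA 2 than with sgRNA 1 in Jeko, by more than other short genes were; that excess was not tested. sgRNA 2 was below sgRNA 1 for 65 of 75 members (52.3% of all tested genes), with a median of -0.34, and 18 members (24.0%) were lower by 1.5-fold or more and 0 higher, while 6.96% of all tested genes and 8.55% of the short genes that are no members were lower by that much. Short protein-coding genes without the members had a median of -0.04 here, the Spearman correlation with length over protein-coding genes was 0.028, and the length-adjusted median of the members was -0.30. The difference was not particular to the members. Lists of other mitochondrial genes had medians from -0.42 (complex II) to -0.15 (regulators of mitochondrial gene expression). Mitochondrial ribosomal proteins had a median of -0.31, with 63 of 76 lower. In the labelled Rec-1 sgRNA libraries the same contrast had a median of 0.01, with 37 of 75 lower, and 4 members lower (5.33%) and 1 higher (1.33%) by 1.5-fold, where 7.95% and 7.44% of all tested genes were. Each of these is 1 library against 1, with no replicate. In limma over both lines the guide contrast called 0 members and 0% of all tested genes, with 4 members (NDUFA8, NDUFB7, NDUFC1 and COX5A) and 656 genes (5.75%) at an unadjusted p under 0.05.

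**Figure D3:**
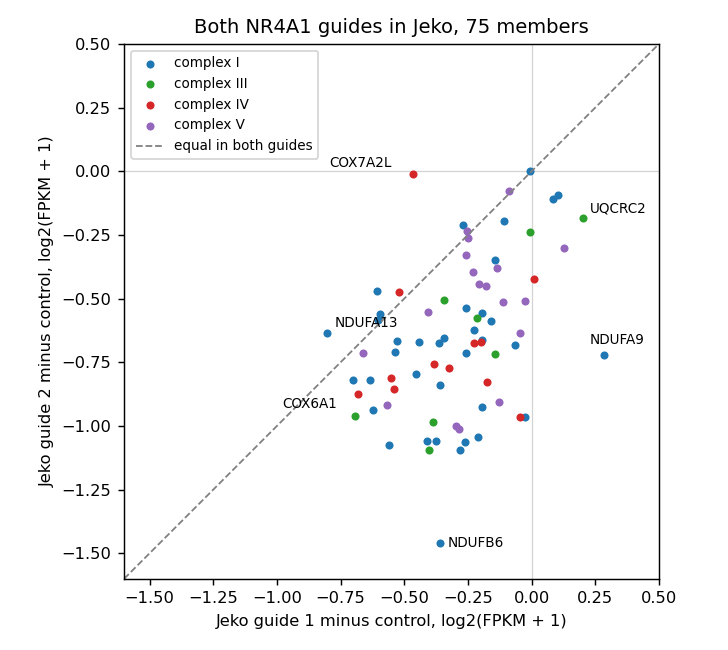
Difference from the Jeko control with guide 1 (x axis) and guide 2 (y axis), log2(FPKM + 1) scale, 1 point per member. The dashed line marks equal differences; 65 of 75 members lie below it.

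Among the core subunits of complex I, which carry the flavin, the iron-sulfur clusters and the quinone site, 6 of 7 lay below the control with both Jeko guides. NDUFV2, an iron-sulfur subunit of the NADH arm, had 510 FPKM in the Jeko control, 354 with sgRNA 1 and 321 with sgRNA 2. NDUFS3, a core subunit near the quinone site, had 162, 121 and 77.0 FPKM. The exception was NDUFS1, the largest subunit, at 33.3, 35.8 and 31.1 FPKM, which is also the member with the longest transcript (11660 nt). The 30 supernumerary subunits of complex I had medians of -0.26 with sgRNA 1 and -0.70 with sgRNA 2, and 27 lay below the control in both. Over all 37 members of complex I the medians were -0.28 and -0.68, and adjusted for the longest transcript they were -0.11 (25 of 37 lower) and -0.47 (35 lower). NDUFB6, a subunit of the membrane arm, had the lowest mean difference of all members (-0.91 ± 0.78, SD, n = 2 guides), from 88.6 FPKM in the control to 68.9 and 31.6, a log2 difference of -0.36 with sgRNA 1 and -1.46 with sgRNA 2. NDUFB7, also in the membrane arm, had 252, 170 and 119 FPKM. NDUFA13, the most abundant complex I transcript, went against the order of the guides with 944, 541 and 608 FPKM. NDUFA10 showed almost the same level in all 3 libraries (20.6, 20.6 and 20.6 FPKM), and NDUFA9, which stabilises the joint of the arms, lay on both sides of the control with 99.8, 122 and 60.1 FPKM.

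All 8 members of complex III were lower with sgRNA 2 than with sgRNA 1. The medians were -0.28 with sgRNA 1 and -0.65 with sgRNA 2, and adjusted for the longest transcript they were -0.07 (5 of 8 lower) and -0.62 (7 lower). UQCRQ, a small ubiquinone-binding subunit, had 93.1 FPKM in the Jeko control, 57.2 with sgRNA 1 and 47.3 with sgRNA 2. UQCR11, another small subunit, had 89.5, 67.5 and 41.4 FPKM, and UQCRC1, a core protein, had 177, 135 and 89.0 FPKM. These 3 were ordered control, sgRNA 1, sgRNA 2, as were all other members of complex III except UQCRC2. Both guides lay below the control for 7 of 8 members, against 36.4% of all tested genes. UQCRC2, the partner of UQCRC1, was the 1 member of complex III not below the control in both, at 168, 193 and 147 FPKM. UQCRH, whose promoter is shown above, had 628, 541 and 421 FPKM.

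In complex IV the Jeko medians were -0.35 with sgRNA 1 and -0.76 with sgRNA 2, and 11 of 12 members lay below the control in both. Adjusted for the longest transcript they were -0.07 (7 of 12 lower) and -0.41 (11 lower); whether complexes differ was not tested. COX6A1 had 1239.5 FPKM in the control, 772 with sgRNA 1 and 676 with sgRNA 2, a limma difference of -0.78 (SE 0.22). COX5B, a zinc-binding subunit, had 499, 340 and 284 FPKM, and COX4I1, the largest nuclear subunit and the site of regulation by ATP, had 791, 607 and 468 FPKM. In all 3 genes both guides lay under the control, and sgRNA 2 under sgRNA 1. COX7C had 1179, 1189 and 879 FPKM, so only sgRNA 2 was lower. COX7A2L, the factor that joins complexes III and IV, had 125, 90.1 and 124 FPKM, with sgRNA 2 near the control. NDUFA4 had 133, 115 and 82.9 FPKM.

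In complex V the Jeko medians were -0.22 and -0.48, and 17 of 18 members lay below the control in both. Adjusted for the longest transcript these medians were -0.03 (10 of 18 lower) and -0.22 (17 lower). With the canonical transcript as length they were 0.02 (8 lower, 10 higher) and -0.19, so with sgRNA 1 the side of the control depended on the adjustment. With the median transcript as length, the sgRNA 1 median was -0.13 in complex V (15 of 18 lower). In that setting it was -0.27 in complex I (32 of 37), -0.25 in complex III (6 of 8) and -0.28 in complex IV (10 of 12). Among the 5 subunits of the catalytic F1 head, ATP5D, the delta subunit, had 116 FPKM in the control and 78.2 and 61.2 with sgRNA 1 and 2, while ATP5A1, the alpha subunit, had 194, 212 and 157 FPKM. ATP5B, the beta subunit, had 1057, 1037 and 743 FPKM. Of the 5, 4 lay below the control with both guides, against 36.4% of all tested genes, and the exception was the alpha subunit. The beta subunit was among the 4, though with sgRNA 1 it was close to the control. The ring of c subunits, through which protons pass, is made from ATP5G1, ATP5G2 and ATP5G3, which encode the same mature protein. ATP5G1 had 426, 347 and 212 FPKM, ATP5G2 had 790, 660 and 628, and ATP5G3 had 120, 98.5 and 59.0. All 3 lay below the control with both guides. ATP5J, with all 3 kinds of motif in its promoter, had 250, 242 and 161 FPKM. Members with the NRF1 letters (11) had a median Jeko difference of -0.63 and those without (50) of -0.50, with -0.44 and -0.50 for YY1 (10 and 51) and -0.55 and -0.49 for ETS (17 and 44), described here with no test.

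In Rec-1 the members lay on both sides of the control. Against the library labelled Rec-1 control the median difference was -0.31 with sgRNA 1 (57 of 75 lower) and -0.45 with sgRNA 2 (58 lower). Adjusted for the longest transcript these were -0.16 (48 lower) and -0.25 (51 lower). Both libraries labelled Rec-1 sgRNA lay below it for 52 of 75 members and above it for 12, where 43.1% of all tested genes had both below and 41.8% both above. Against the Jeko control instead, which leaves out the library labelled Rec-1 control, 58 of 75 lay below and 8 above (43.6% and 41.9% of all tested genes), and there cell line and guide cannot be told apart. The T-cell marker sums of 102 and 120 FPKM belong to the same libraries, and their part in these values was not tested. limma called 6 of 75 members (8.0%) in Rec-1 sgRNA against the library labelled Rec-1 control, while 19.2% of all tested genes were called, so the share of members was below the background. ATP5A1 was the 1 called higher, and NDUFB2, COX6A1, COX7A2, ATP5H and ATP5G1 were called lower. All 6 calls were lost when either library labelled Rec-1 sgRNA, or either Jeko sgRNA library, was left out of the fit, with 0 called.

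ATP5A1 (chr18:43660214-43684300, minus strand, GRCh37) had 168 FPKM in the library labelled Rec-1 control and 463 and 392 in those labelled Rec-1 sgRNA 1 and 2, against 157 to 212 in the 3 Jeko libraries. Both libraries labelled Rec-1 sgRNA stood above the other 4. The limma log2 difference was 1.34 (SE 0.29, adjusted p = 0.049), at the edge of the threshold. NDUFB2 (chr7:140390577-140422590, plus strand), a membrane-arm subunit of complex I, had 330 FPKM in the library labelled Rec-1 control and 87.5 and 94.6 in those labelled Rec-1 sgRNA, against 209 to 363 in Jeko. Its log2 difference was -1.85 (SE 0.25, adjusted p = 0.019), the lowest adjusted p among members in this comparison. ATP5G1 (chr17:46970127-46973233, plus strand) had 308 FPKM against 96.3 and 93.2, a log2 difference of -1.69 (SE 0.36, adjusted p = 0.048). The other c-subunit genes did not pass: ATP5G2 had 722 against 570 and 476 FPKM, and ATP5G3 had 96.0 against 76.8 and 83.7.

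COX6A1 (chr12:120875893-120878540, plus strand) had 1220.5 FPKM in the library labelled Rec-1 control and 497 and 583 in those labelled Rec-1 sgRNA, a log2 difference of -1.18 (SE 0.22, adjusted p = 0.038). It lay below the control of its line in all 4 sgRNA libraries. COX7A2 (chr6:75947391-75960039, minus strand) had 298 against 115 and 136 FPKM, and ATP5H (chr17:73034958-73043080, minus strand), the d subunit of the peripheral stalk, had 362 against 165 and 174 FPKM, with adjusted p of 0.046 and 0.044 by limma. In complex III 5 of 8 members lay above the library labelled Rec-1 control in both libraries labelled Rec-1 sgRNA, as did 41.8% of all tested genes. UQCR10, a small subunit, had 83.1 FPKM there and 99.6 and 116 in those libraries, and UQCRFS1, the Rieske iron-sulfur protein, had 96.6 against 113 and 115. None of the 8 was called in this comparison.

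**Figure D4:**
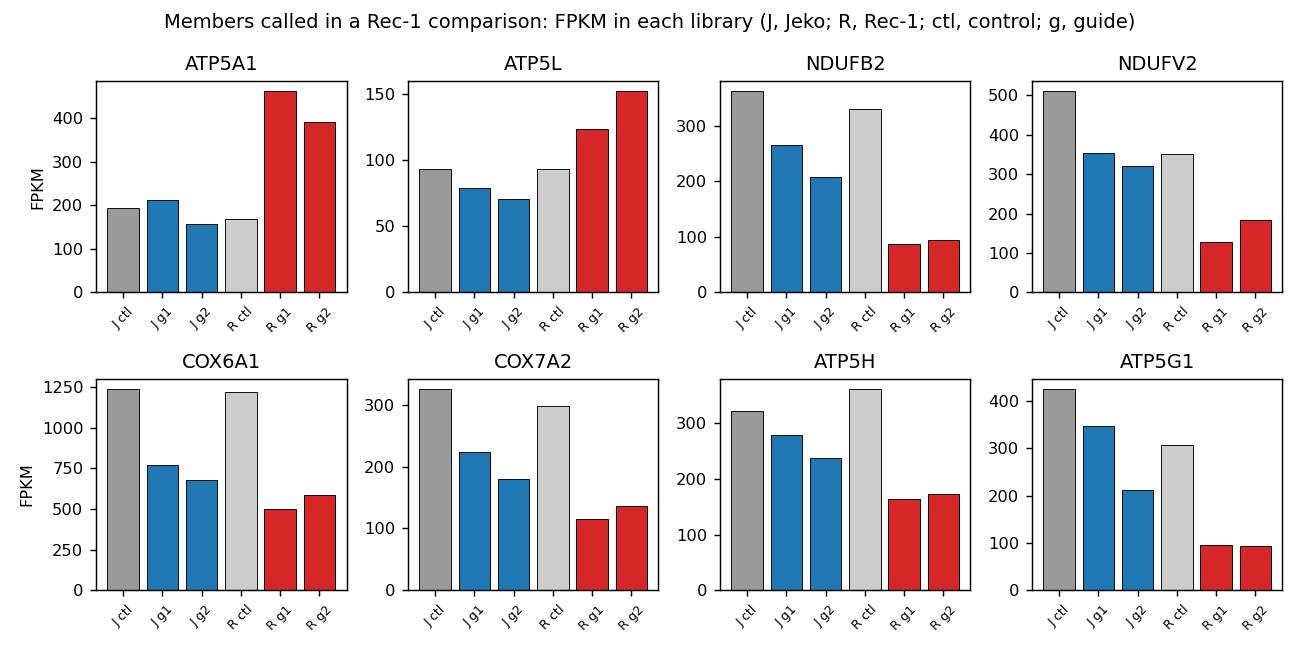
FPKM (y axis, from 0) of the 8 members called in a comparison that involves the labelled Rec-1 sgRNA libraries, in each of the 6 libraries (x axis; gray, control; blue, Jeko guides; red, Rec-1 guides). ATP5A1 and ATP5L are highest, and NDUFB2, NDUFV2, COX6A1, COX7A2, ATP5H and ATP5G1 lowest, in the red bars. For ATP5A1, NDUFV2 and ATP5G1 the bar labelled Rec-1 control lies between those of the Jeko guides.

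The comparison of sgRNA libraries between lines does not use either control. The median difference, Rec-1 minus Jeko, was 0.01. Both libraries labelled Rec-1 sgRNA lay below both Jeko sgRNA libraries for 21 of 75 members (28.0%) and above both for 21, against 37% and 32.9% of all tested genes. limma called 5 members (6.67%), where 25.9% of all tested genes were called. ATP5A1 (2.32 times the Jeko mean, log2 difference 1.22, SE 0.24, adjusted p = 0.033) and ATP5L, the g subunit of the membrane part of complex V (adjusted p = 0.049), were higher. ATP5L (chr11:118272061-118303993, plus strand) had 79.3 and 70.5 FPKM in Jeko and 124 and 152 in the labelled Rec-1 sgRNA libraries. Lower were NDUFB2 (adjusted p = 0.019), ATP5G1 (adjusted p = 0.034) and NDUFV2 (chr18:9102628-9134343, plus strand, adjusted p = 0.044), the last with 354 and 321 FPKM in Jeko and 128 and 185 in those libraries. Without either library labelled Rec-1 sgRNA, or without Jeko sgRNA 1, 0 members were called, and without Jeko sgRNA 2, 1 was.

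Over both lines the sgRNA libraries were compared with the controls with cell line as a covariate. limma called 0 of 75 members, where 0.246% of all tested genes were called. At an unadjusted p under 0.05 there were 21 members, all lower (28.0%), and 2410 of 11400 genes (21.1%), and the lowest adjusted p of a member was 0.165, for COX6A1. With either control left out, the sgRNA term compares sgRNA with control within the other line only, so such fits give no count over both lines. A total of 48 of 75 members (64.0%) were lower than the own-line control in 4 of 4 sgRNA libraries and 0 were higher in 4 of 4, against 21.1% and 21.0% of all tested genes and 41.4% and 4.61% of the shortest protein-coding quintile. By complex these were 26 of 37 in complex I, 3 of 8 in complex III, 7 of 12 in complex IV and 12 of 18 in complex V. The interaction of line and sgRNA was called for 0 members, where 6.94% of all tested genes were called, and 2 members (2.67%) had an unadjusted p under 0.05, against 21.9% of all tested genes. Members lower with both Jeko guides and higher in both libraries labelled Rec-1 sgRNA, each against the own-line control, numbered 10 of 75 (9.9% of all tested genes), and 0 lay the other way round (10.8%). These counts and fits over both lines use the library labelled Rec-1 control, which resembled the Jeko libraries. They therefore cannot show that the lines behaved alike. Against the Jeko control instead, both libraries labelled Rec-1 sgRNA lay below it for 58 of 75 members and above it for 8. The shares of all tested genes were 43.6% and 41.9%.

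Other genes of the pathway were read from lists fixed for this work. The 4 listed genes of complexes III and V with names outside the rule all lay below the Jeko control with both guides. The same held for 36.4% of all tested genes. These 4 are CYC1 (cytochrome c1 of complex III), USMG5 and C14orf2 (small subunits of complex V) and ATPIF1 (the inhibitor of complex V, not itself a subunit). Their medians were -0.40 and -0.73. CYC1 had 184, 140 and 97.5 FPKM in the Jeko control, sgRNA 1 and sgRNA 2 libraries. Of complex II, which also belongs to the citric acid cycle, SDHB and SDHD were below the Jeko control with both guides and SDHA and SDHC on both sides of it. SDHD, a membrane anchor, was called higher in the labelled Rec-1 sgRNA libraries (77.0 and 90.3 FPKM) than in Jeko sgRNA (41.7 and 34.4; limma adjusted p = 0.030).

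Mitochondrial ribosomal proteins, which make the subunits encoded in mitochondrial DNA and whose transcripts are also short (median 1474.5 nt), were also read. Of 76 tested, 61 lay below the Jeko control with both guides, with medians of -0.28 and -0.59. The same held for 36.4% of all tested genes and 68.7% of the shortest protein-coding quintile without the members. Assembly factors had Jeko medians of -0.21 and -0.47 for complex I (13 tested) and -0.13 and -0.40 for complex IV (24 tested), and the 13 citric acid cycle genes had -0.06 and -0.21. In Jeko 0 genes of any of these lists were called.

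Regulators of mitochondrial gene expression lay on both sides of the Jeko control. Of 11 tested, 6 were above the control with both guides and 3 below, against 36.9% and 36.4% of all tested genes. Their medians were 0.25 and 0.13, and 0 were called. Their transcripts are longer (median 3771 nt). PPRC1, a coactivator of the PGC-1 family, had 10.5 FPKM in the control and 22.1 and 16.8 with sgRNA 1 and 2. MYC, a driver of growth and mitochondrial biogenesis, had 302, 586 and 416 FPKM. NRF1, whose motif is in the NDUFS7, COX6A1 and ATP5J promoters, had 12.0, 11.3 and 12.6 FPKM. TFB1M, a methyltransferase of mitochondrial ribosomal RNA, was the tested regulator with the lowest mean difference, at 14.5, 9.12 and 8.73 FPKM. Between lines 3 regulators were called lower in the labelled Rec-1 sgRNA libraries than in Jeko sgRNA: MYC (196 and 139 FPKM, adjusted p = 0.030), PPRC1 (10.3 and 7.98 FPKM, adjusted p = 0.047) and GABPB1, a partner of the ETS factor GABPA (11.3 and 9.96 FPKM against 24.5 and 22.6 in Jeko, limma adjusted p = 0.022). PPARGC1A, the best known coactivator of these genes, was listed at 0 in all 6 libraries.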

How the data were processed

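Gene expression was read from 1 table of FPKM values deposited by the authors, with 1 column for each of 6 libraries, per the file headers. TopHat and hg19 are named in the submitters' processing notes; the program that computed FPKM, the annotation and the use of strand are not given in the sources used here. Depth per library is unknown, so no counting interval was computed. Values were taken as log2(FPKM + 1), which understates differences of low genes. The 11400 genes whose mean reached 1 FPKM were tested with limma 3.58.1 in R 4.3.3 (lmFit, eBayes with trend; Benjamini-Hochberg over all tested genes, threshold 0.05) on group means of all 6 libraries, with 2 residual degrees of freedom; the sgRNA effect over both lines had cell line as covariate. Each control has no replicate and was assumed to vary as the guides do, and p-values measure only the spread between these libraries. The scripts were tested on simulated data. Transcript lengths and positions came from GENCODE release 44 mapped to GRCh37. The length adjustment was a lowess curve (fraction 0.3). Members, gene lists, motifs and tests were chosen with earlier results of these data known. Genes to name were set by rule: the 2 highest and 2 lowest differences of each complex in Jeko and between lines, the most abundant member of each complex, called members, paralogs and regulators. Not all that met this rule are given with values here. ATP5J2, ATP5J2-PTCD1 and several regulators, among them TFAM and YY1, are not. Others (NDUFS3, NDUFS7, UQCRFS1, COX5B, ATP5J, ATP5B, and the genes at an unadjusted p under 0.05) were added after their values were seen. Alternatives were another pseudocount (0.1), other minima (5 FPKM, none), protein-coding genes only, length adjustment, other scalings, each library left out and guide number as a block.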

Additional observations from a re-analysis of the deposited data

Results flagged for a closer look

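In Jeko and Rec-1 some results lay on opposite sides of the own-line control in all 4 sgRNA libraries. Of 75 members, 10 were lower with both Jeko guides and higher in both libraries labelled Rec-1 sgRNA, and 0 the other way round, against 9.9% and 10.8% of all tested genes. For complex III the median difference from control was higher in Rec-1 than in Jeko by 0.60 on the log2 scale, and this difference of medians was not tested. Among members named here, the Rec-1 difference exceeded the Jeko difference by 1.33 (log2) for NDUFC1, a small subunit of complex I, by 0.99 for ATP5D, 0.87 for ATP5L and 0.41 for ATP5I in complex V, and by 0.69 for COX6C and 0.41 for COX7A2L in complex IV. In complex III it did so by 0.79 for UQCR10, 0.67 for UQCRFS1, 0.47 for UQCRH and 0.44 for UQCRB. None of these 10 passed limma's interaction test, where the lowest adjusted p was 0.26. The Rec-1 values rest on the library labelled Rec-1 control, which resembled the Jeko control.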

How the results depend on the processing

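Counts of called members depended on settings in Rec-1 and between lines, while no called gene changed direction in any alternative run. Against the library labelled Rec-1 control, 6 members were called, and the count was 2 with a minimum of 5 FPKM, 2 with no minimum, and 10 with protein-coding genes only. With guide number as a replicate block it was 2 (1 higher, 1 lower). Leaving out 1 library gave 0 to 6. Between the sgRNA libraries of the lines 5 were called, with 3 at a minimum of 5 FPKM, 2 with no minimum, 11 after adjustment for the longest transcript, 10 after adjustment for the canonical transcript (added after seeing the data), and 0 to 6 with 1 library left out. Over both lines no such range is given, because without a control the sgRNA term compares libraries within the other line only. The Jeko median of -0.50 (mean of the guides) ranged from -0.67 to -0.26 with a guide left out. The Rec-1 median of -0.37 was -0.20 and -0.22 after adjustment for the longest and canonical transcript and ranged from -0.45 to -0.31 with a guide left out, and the median between lines ranged from -0.23 to 0.17. Members below the control with both Jeko guides numbered 45 of 74 after adjustment for the canonical transcript. The share over all genes was not computed in that setting, where 5078 of 10283 were lower with sgRNA 1 and 5161 with sgRNA 2. The cause of these changes was not tested. The numbers stand for guides, not for paired samples. The guide 2 minus guide 1 differences of the lines had a Pearson correlation of 0.0998 over all tested genes, 0.208 over protein-coding genes and 0.164 over the members, and the labels do not say that a number marks a shared culture or day. The block changed no other count of calls by over 1.5 times. Depth is unknown, which limits statements on low genes.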

Other observations

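The controls of the lines were closer to each other than either was to its own sgRNA libraries. Over the 75 members the median difference of the library labelled Rec-1 control from the Jeko control was -0.13, with 55 lower, and the median absolute difference was 0.13, against 0.26 and 0.67 for Jeko sgRNA 1 and 2 from the Jeko control. NDUFB6 had the lowest value of this difference, at -0.65 (56.2 against 88.6 FPKM).

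Members made up 3.18% of the summed FPKM of tested protein-coding genes in the Jeko control, 2.75% with sgRNA 1 and 2.13% with sgRNA 2. The share was 3.05% in the library labelled Rec-1 control and 2.55% and 2.56% in those labelled Rec-1 sgRNA 1 and 2. COQ6, a coenzyme Q synthesis enzyme, had 0.570 FPKM with Jeko sgRNA 1 against 3.43 in the Jeko control and 4.75 with sgRNA 2, and MRPL41, a mitochondrial ribosomal protein, was called higher in the labelled Rec-1 sgRNA libraries (35.1 and 27.3 FPKM) than in Jeko sgRNA (8.31 and 10.1; limma adjusted p = 0.014). COA7, an assembly factor of complex IV, was called lower there (5.79 and 5.63 FPKM against 23.3 and 16.8; limma adjusted p = 0.015).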
